A study of Sus scrofa with 9 samples.

Results

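The genes described here encode the nuclear subunits of the oxidative phosphorylation (OXPHOS) chain, measured in tooth germs of miniature pigs. They were taken from the deposited expression table by symbol alone, as every row named NDUFA, NDUFB, NDUFC, NDUFS or NDUFV with a number, SDHA to SDHD, UQCR, CYC1, COX4I, COX5 to COX8, or ATP5 with a letter. The rule found 61 of the 34580 genes and transcripts listed, namely 34 of complex I, 4 of complex II, 2 of complex III, 8 of complex IV and 13 of complex V. Symbols are those of the table, so that the subunits of ATP synthase carry their older ATP5 names. The rule itself uses no measured value.

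The germs were those of the third deciduous molar (Dm3) of the mandible, dissected from fetuses at embryonic day (E) 40, 50 and 60, which are the cap, early bell and late bell stages. Total RNA depleted of rRNA was sequenced in 3 libraries per stage. No genotype or treatment distinguishes the groups, which differ in gestational age, and a germ holds epithelium, mesenchyme and vessels together. The labels do not say whether the 3 libraries of a stage came from separate animals, so the p-values measure only the spread between these libraries.

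Oxidative phosphorylation is carried out by 5 protein complexes in the inner mitochondrial membrane. Complexes I and II pass electrons from NADH and succinate to ubiquinone, complex III passes them on to cytochrome c, complex IV passes them to oxygen, and complex V uses the proton gradient that results to make ATP. Most subunits are encoded in the nucleus and imported, whereas a small set of core subunits is encoded by mitochondrial DNA, and the complexes other than complex II need both. In many tissues this machinery is built up as cells leave proliferation and take on secretory or contractile work.

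The values are FPKM, fragments scaled to the length of the transcript and to the size of the library, so levels can be compared between genes per length. Low values are whole multiples of the worth of a single read, which gave back the read counts. The E50 libraries and E60 library 1 held between 13840670 and 16167719 reads and are called the deep libraries. The E40 libraries and E60 libraries 2 and 3 held between 681672 and 1204273 reads and are called the shallow libraries. All E40 libraries are shallow and all E50 libraries deep, so that between E40 and E50 stage and depth cannot be told apart, whereas E60 holds both kinds.

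Markers of the dental epithelium (KRT5, KRT14) and mesenchyme (MSX1, LHX8) were present in all 9 libraries. The enamel protein gene AMBN stood between 2.77 and 6.48 FPKM at E40 and E50, and at 10410 FPKM in library 1, 2181 FPKM in library 2 and 5371 FPKM in library 3 of E60. All 3 E60 libraries thus held the enamel transcripts of the late bell stage. The order of the levels of the OXPHOS genes, in contrast, divided the libraries by depth, as did the levels of the whole table. The Spearman correlation of their FPKM, over 58 genes, lay between 0.968 and 0.992 for the 6 pairs of deep libraries, between 0.887 and 0.95 for the 10 pairs of shallow libraries and between 0.573 and 0.801 for the 20 pairs that join the sets. The genes are the points of these correlations and share their libraries, so that the values are a description only.

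Of the 61 genes, 58 were above 0 and passed the filter of at least 1 FPKM in at least 2 libraries. SDHA, the flavoprotein subunit of complex II, and the complex I subunits NDUFB4 and NDUFB10 were listed at 0 in all 9 libraries, as were 5617 of all rows. A gene of this group had a median of 854 reads per deep library and of 34 reads per shallow library. In 8 of the 58 genes at least 1 library held 3 reads or fewer, which was taken as the floor, and 27 held over 20 reads in every library.

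Summed over the 61 genes, the level was 2361, 2695 and 3491 FPKM at E40 and 6216, 6153 and 7822 FPKM at E50. In the E60 libraries it was 6900, 1563 and 3776 FPKM in turn. The E50 libraries all lay above the E40 libraries, and within E60 the deep library lay above both shallow ones. In bulk RNA, fewer cells of a type and less RNA per cell cannot be told apart.

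**Figure D1:**
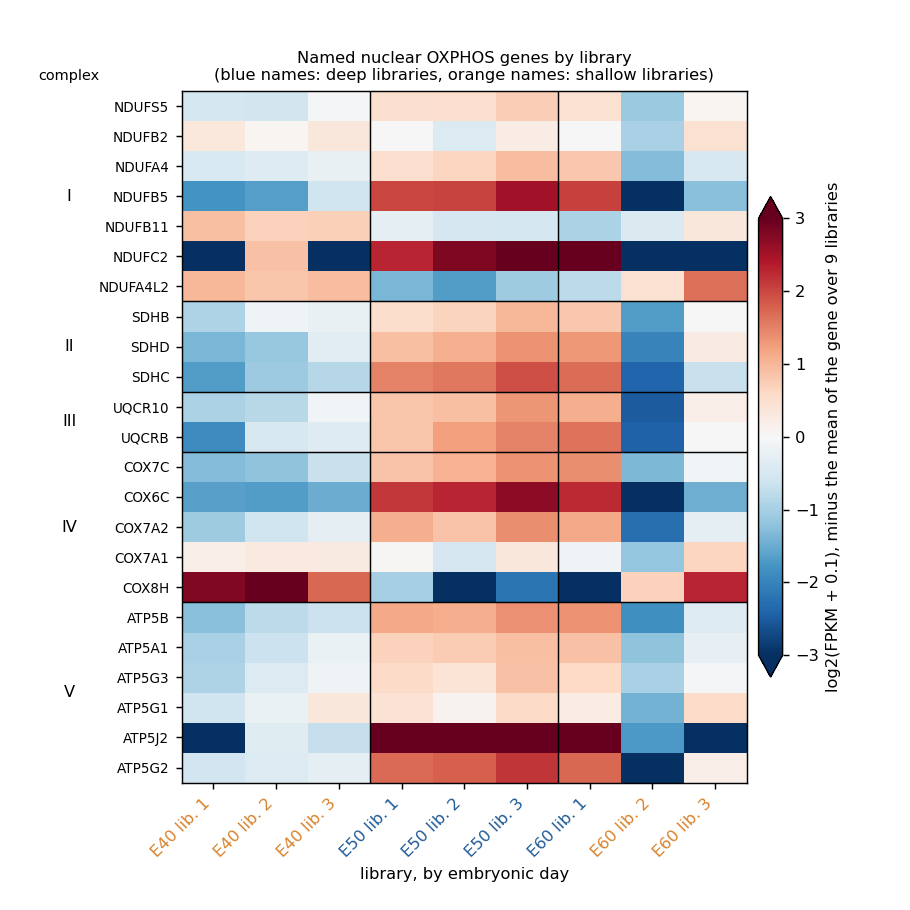
Level in each of the 9 libraries of the 23 OXPHOS genes whose values are given in full, as log2(FPKM + 0.1) minus the mean of the gene over the libraries, with genes ordered by complex and by mean FPKM. The E50 libraries and E60 library 1 (blue names) show one pattern and the E40 libraries with E60 libraries 2 and 3 (orange names) another, with COX8H and NDUFA4L2 running opposite to most genes.

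The first comparison asked which subunits differ between the cap and the early bell stage. Over all 9 libraries, 14 of the 58 genes rose from E40 to E50 and 3 fell (limma on log2(FPKM + 0.1), Benjamini-Hochberg adjusted p under 0.05 and a change of at least 1 on the log2 scale). Of all 19618 features tested, 16.8% passed as higher and 21.8% as lower, so that the share of OXPHOS genes that rose was above the background and the share that fell below it. Of the 58 genes, 48 had a positive change, with a median of 1.02 on the log2 scale against 0.55 over all features. Endothelial markers moved with them, 2 of 4 rising (PECAM1 and TEK, median 1.38), with sums between 19.0 and 21.7 FPKM at E40, between 52.2 and 56.3 FPKM at E50 and of 63.2, 16.6 and 30.7 FPKM at E60. Their part in the result was not tested. Without E60 library 1, which enters through the shared estimate of the spread, 27 genes rose and 3 fell, against a background of 30.5% higher and 24.2% lower.

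These counts rested on few libraries. The 17 calls became 0 without E40 library 1, E50 library 2 or E50 library 3, 1 without E40 library 2, 2 without E50 library 1, 6 without E40 library 3, and 30 without E60 library 1 or E60 library 2. Over all features the 7580 calls became 209, 58 and 58 in the runs with 0, and then 3285, 3431 and 5282. They became 10650 without E60 library 1 and 10046 without E60 library 2, so that the OXPHOS calls moved with those of the whole table. Scaling the libraries by median ratios moved the median change of all features from 0.55 to -0.14 on the log2 scale and that of the OXPHOS genes from 1.02 to 0.36. Under that scaling 12 genes rose and 4 fell against a background of 11.8% and 24.7%, and over the 8 libraries 17 rose and 6 fell against a background of 15.5% and 27.8%. All 17 genes called over the 9 libraries kept their direction under the scaling. Since it multiplies each library by 1 factor and moved both medians by less than 1, called genes could hardly turn. Their direction is therefore no further support.

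When the depth set was added to the fit as a second term, an alternative chosen after the data were seen, 0 of the 58 genes passed by limma, 0 had an unadjusted p under 0.05, and 0.255% of all features passed. The median change of the OXPHOS genes from E40 to E50 was then -0.24 on the log2 scale, against -0.36 over all features. Of the 48 genes with a positive change, 37 had a negative one in this fit. Its standard errors were wider, with a median of 0.69 on the log2 scale against 0.52, and it assumes that stage and depth add up.

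In 35 of the 58 genes (60.3%) every E50 library lay above every E40 library, against 45.2% of all features, and in 5 genes every E50 library lay below, against 27.8%. The same number of genes, 35, had all 4 deep libraries above all 5 shallow ones, against 37.7% of all features. In 2 genes, NDUFA4L2 and COX8H, all deep libraries lay below all shallow ones, against 20.1%.

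**Figure D2:**
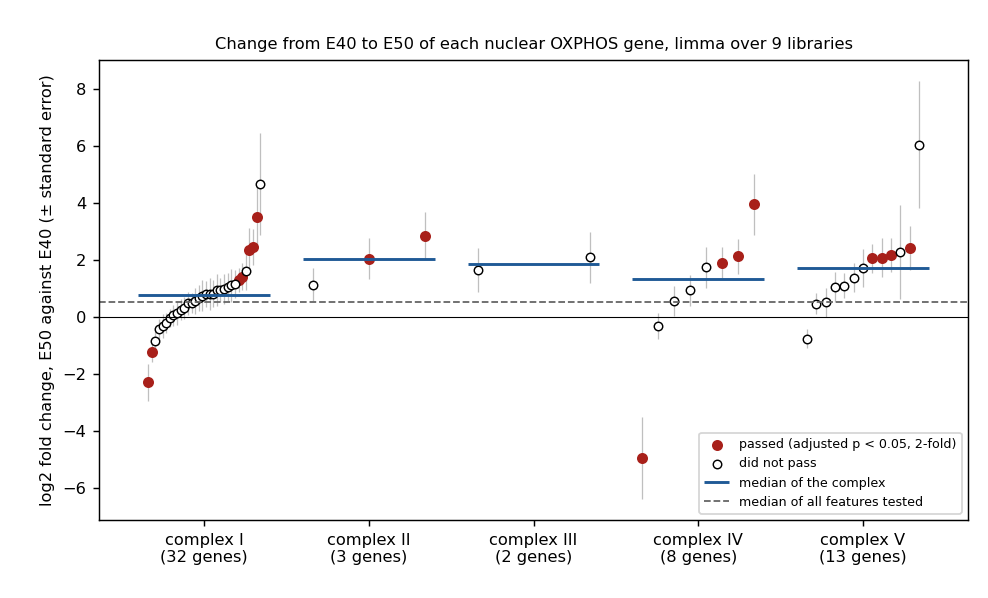
Log2 fold change from E40 to E50 of each gene with its standard error from limma over 9 libraries, by complex, where filled points passed the test, blue lines mark the median of each complex and the dashed line marks the median of all features tested. The medians stand at 0.78, 2.05, 1.88, 1.35 and 1.72 for complexes I to V.

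Complex I is the largest of the chain, a proton pump built from a core that carries FMN and iron-sulfur clusters and from many accessory subunits around it. Of its 32 genes tested, 5 rose from E40 to E50 and 2 fell, with a median change of 0.78 on the log2 scale. Over all features 16.8% rose and 21.8% fell, so that the share of complex I that rose was not above the background. The accessory subunits NDUFS5 and NDUFB2 had the highest mean levels. NDUFS5 stood at 86.3, 84.4 and 120 FPKM at E40, at 173, 177 and 207 FPKM at E50, and at 171, 57.3 and 128 FPKM at E60. The E50 libraries did not overlap with the E40 libraries, but the change of 0.95 ± 0.43 (SE) did not pass (limma adjusted p = 0.10). NDUFB2 stood at 130, 110 and 132 FPKM at E40, at 104, 79.0 and 123 FPKM at E50 and at 105, 53.4 and 145 FPKM at E60, with all stages overlapping (change -0.30 ± 0.41, limma adjusted p = 0.56).

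The largest rise within complex I that passed was that of NDUFB5, an accessory subunit of the membrane arm. Its level was 5.29, 5.90 and 12.2 FPKM at E40 and 75.6, 75.9 and 107 FPKM at E50. At E60 it was 78.1 FPKM in library 1 and 1.80 and 7.76 FPKM in libraries 2 and 3. The E40 and E50 libraries were far apart, the deep E60 library lay within the E50 range and the shallow ones inside or below the E40 range. Between E40 and E50 the log2 fold change was 3.53 ± 1.10 (SE, limma adjusted p = 0.034). NDUFB1, NDUFC1, NDUFA13 and the FMN-binding core subunit NDUFV1 also rose, by between 1.3 and 2.47 on the log2 scale.

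NDUFC2, an accessory subunit of the membrane arm, was near the floor. It held 0, 1 and 0 reads at E40, 39, 63 and 84 reads at E50, and 91, 0 and 0 reads at E60, which is 4.37, 6.20 and 9.59 FPKM at E50 and 9.26 FPKM in E60 library 1. Corrected for the FPKM worth of a read in each library, the E50 level was 13.5 times that at E40. The exact 95% interval ran from 2.39 to 535 and covers counting error only. The fitted change did not pass over the 9 libraries (limma adjusted p = 0.063) and passed over the 8 (adjusted p = 0.0054).

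NDUFB11, an accessory subunit of the membrane arm, fell. It stood at 43.6, 37.6 and 38.2 FPKM at E40, at 19.4, 16.4 and 16.2 FPKM at E50, and at 12.1, 17.1 and 29.5 FPKM at E60. All E40 libraries lay above all E50 and all E60 libraries, so that here the shallow E60 libraries did not return to the E40 range. The change from E40 to E50 was -1.20 ± 0.37 (SE, limma adjusted p = 0.033). Its change from E40 to E60, -1.12 ± 0.37, missed the threshold (limma adjusted p = 0.19).

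NDUFA4 and its paralog NDUFA4L2 are listed by name with complex I, although NDUFA4 is now placed with complex IV and NDUFA4L2 is known as a gene induced by hypoxia. NDUFA4 stood at 59.2, 62.6 and 69.3 FPKM at E40, at 115, 128 and 155 FPKM at E50 and at 142, 32.7 and 58.0 FPKM at E60. NDUFA4L2 stood at 3.32, 2.97 and 3.14 FPKM at E40, at 0.568, 0.436 and 0.724 FPKM at E50 and at 0.903, 2.26 and 5.32 FPKM at E60. The 2 genes were opposite in every set of libraries, NDUFA4 being high and NDUFA4L2 low in the deep ones. NDUFA4L2 fell from E40 to E50 by 2.28 ± 0.66 on the log2 scale (SE, limma adjusted p = 0.027), on 10 reads in all at E40 and 25 at E50, and the read ratio was 0.18 with an exact 95% interval from 0.084 to 0.42.

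Complex II, succinate dehydrogenase, is the only complex of the chain that also belongs to the Krebs cycle and that has no subunit encoded in mitochondrial DNA. Of its 3 genes above 0, the membrane anchors SDHC and SDHD rose and the iron-sulfur subunit SDHB did not pass. Of all features 16.8% rose and 21.8% fell. SDHC stood at 8.14, 12.3 and 14.4 FPKM at E40, at 73.4, 78.5 and 99.9 FPKM at E50 and at 84.2, 4.98 and 16.5 FPKM at E60. The change from E40 to E50 was 2.87 ± 0.84 (SE, limma adjusted p = 0.028). SDHD stood at 16.5, 19.4 and 33.9 FPKM at E40 and at 80.3, 89.2 and 110 FPKM at E50. At E60 it stood at 106, 10.6 and 50.5 FPKM. Its change from E40 to E50 was 2.05 ± 0.73 (SE, limma adjusted p = 0.0498), just inside the threshold.

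SDHB stood at 29.1, 50.7 and 47.5 FPKM at E40, at 79.7, 87.3 and 110 FPKM at E50 and at 97.0, 17.2 and 54.6 FPKM at E60. Its stages E40 and E50 did not overlap, and its change was 1.15 ± 0.58 (SE, limma adjusted p = 0.13), against an adjusted p = 0.045 over the 8 libraries. The ratio of SDHC to SDHB within a library compares an anchor with the subunit it holds. It was 0.28, 0.243 and 0.304 at E40, 0.921, 0.90 and 0.912 at E50, and 0.867, 0.290 and 0.302 at E60, with the deep and the shallow libraries far apart.

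Complex III is represented by 2 accessory subunits, UQCR10 and the ubiquinone-binding protein UQCRB, since the rule found no CYC1 row and no core protein row. UQCR10 stood at 34.4, 37.3 and 62.8 FPKM at E40, at 120, 125 and 169 FPKM at E50 and at 143, 11.7 and 77.4 FPKM at E60. UQCRB stood at 3.89, 10.4 and 11 FPKM at E40, at 25.9, 34.1 and 41.1 FPKM at E50 and at 45.4, 2.64 and 14.5 FPKM at E60. In both genes the E50 libraries lay above the E40 libraries and the deep E60 library above the shallow ones. Neither passed over the 9 libraries (limma adjusted p = 0.12 and 0.085) and both passed over the 8, with changes of 1.66 and 2.10 on the log2 scale. Over the 8 libraries 30.5% of all features passed as higher.

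Complex IV, cytochrome c oxidase, has a catalytic core encoded by mitochondrial DNA and a shell of nuclear subunits, some of which exist in tissue-specific forms. Of its 8 genes, COX6C, COX7C and COX6B rose and COX8H fell, where 16.8% of all features rose and 21.8% fell. COX7C had the highest mean level of all 61 genes, at 124, 132 and 191 FPKM at E40, at 548, 624 and 776 FPKM at E50, and at 795, 119 and 286 FPKM at E60. No E40 library reached the E50 range (change 2.14 ± 0.62, SE, limma adjusted p = 0.028).

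COX6C had the largest rise among all genes that passed. It stood at 27.6, 26.6 and 30.1 FPKM at E40, which made it 35th of the 61 genes by mean level, and at 369, 415 and 543 FPKM at E50, where it was 4th. At E60 it stood at 403 FPKM in library 1 and at 10.1 and 30.6 FPKM in libraries 2 and 3. The libraries of 1 stage lay close together at E40 and E50, whereas those at E60 spanned nearly the whole range. The change from E40 to E50 was 3.95 ± 1.07 on the log2 scale (SE, limma adjusted p = 0.022).

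COX8H, the heart and muscle form of subunit VIII, fell, on very few reads. It stood at 9.57, 14.2 and 4.52 FPKM at E40, from 3, 5 and 2 reads, and at 0.612, 0 and 0.208 FPKM at E50, from 3, 0 and 1 reads. At E60 it stood at 0, 2.17 and 6.80 FPKM, from 0, 1 and 4 reads. All E40 libraries lay above all E50 libraries, and the E60 libraries overlapped with both (change from E40 to E50 -4.94 ± 1.44, SE, limma adjusted p = 0.028). The read ratio of E50 to E40 was 0.029, with an exact 95% interval from 0.0066 to 0.10.

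Skeletal muscle markers moved with COX8H between E40 and E50. Of the 10 markers listed, 6 fell from E40 to E50 and 2, CKM and TNNT3, were at 0 in every library, and their sum was between 243 and 359 FPKM at E40, between 32.7 and 42.3 FPKM at E50 and between 28.3 and 127 FPKM at E60. The fast muscle light chain MYLPF stood between 95.3 and 104 FPKM at E40, at 11.7 FPKM in each E50 library and between 2.20 and 7.44 FPKM at E60, while MYL1, of the same list, stood between 10.02 and 19.5 FPKM at E40, between 7.01 and 10.4 FPKM at E50 and at 109, 11.9 and 28.6 FPKM at E60. The part of muscle in the fall of COX8H was not tested. COX7A1, the muscle form of subunit VIIa, stood at 45.5, 49.3 and 48.3 FPKM at E40, at 41.0, 28.1 and 50.3 FPKM at E50 and at 37.0, 17.7 and 62.3 FPKM at E60, with all stages overlapping (change from E40 to E50 -0.30 ± 0.46, SE, limma adjusted p = 0.60).

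Its ubiquitous counterpart COX7A2 stood at 49.6, 68.5 and 86.4 FPKM at E40, at 220, 187 and 273 FPKM at E50 and at 230, 21.5 and 85.4 FPKM at E60. The stages E40 and E50 did not overlap, and the change was 1.75 ± 0.73 (SE, limma adjusted p = 0.080, and 0.013 over the 8 libraries). The remaining complex IV genes COX5B and COX6A1 had positive changes below 1 on the log2 scale and did not pass.

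Complex V, ATP synthase, is a rotary enzyme with a catalytic F1 head of alpha and beta subunits and a membrane part that holds the ring of c subunits. Of its 13 genes, 4 rose and 0 fell by limma, and 9 had an unadjusted p under 0.05. Over all features 16.8% rose and 21.8% fell, and 10134 of 19618 had an unadjusted p under 0.05. The beta subunit ATP5B stood at 105, 147 and 162 FPKM at E40, at 554, 538 and 651 FPKM at E50 and at 642, 70.7 and 192 FPKM at E60. It rose from E40 to E50 by 2.09 ± 0.69 on the log2 scale (SE, limma adjusted p = 0.040). The alpha subunit ATP5A1 stood at 134, 167 and 228 FPKM at E40, at 424, 443 and 491 FPKM at E50 and at 481, 114 and 219 FPKM at E60, and its change of 1.39 ± 0.52 did not pass over the 9 libraries (adjusted p = 0.058) but passed over the 8 (adjusted p = 0.0063).

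Alpha and beta subunits are joined in equal number in the enzyme, but their transcripts did not keep a fixed ratio. ATP5B was below ATP5A1 in all 3 E40 libraries, with ratios of 0.787, 0.875 and 0.709, and above it in all 3 E50 libraries, with ratios of 1.31, 1.21 and 1.32. At E60 the ratio was 1.33 in library 1 and 0.621 and 0.877 in libraries 2 and 3. The other genes of complex V that rose were ATP5E (epsilon subunit of the head), ATP5H (subunit d) and ATP5L (subunit g), by between 2.07 and 2.43 on the log2 scale.

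ATP5J2, subunit f of the membrane part, held 0, 2 and 2 reads at E40, 387, 568 and 544 reads at E50, and 534, 1 and 0 reads at E60. This is 68.5, 88.4 and 98.3 FPKM at E50 and 85.9 FPKM in E60 library 1. The read ratio of E50 to E40, corrected for the FPKM worth of a read, was 27.2 (exact 95% interval 10.6 to 99.8). It was the highest among the 8 genes with few reads. The fitted change did not pass over the 9 libraries (limma adjusted p = 0.057) and passed over the 8 (adjusted p = 0.0094). ATP5S, a coupling factor that the symbol rule includes, went the other way, with every E50 library below every E40 library and a change of -0.75 that did not pass.

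In the second comparison, from the early to the late bell stage, the calls turned on E60 library 1. Over all 9 libraries 0 of the 58 genes passed in either direction by limma, 9 had an unadjusted p under 0.05, and 0.0714% of all features passed (0.051% higher and 0.0204% lower). Limma-voom on the recovered reads also called 0 of the genes, with 2 at an unadjusted p under 0.05 and 0.734% of all features passing. The median change was -0.88 on the log2 scale against -0.64 over all features. Without E60 library 1, 33 genes fell and 2 rose, against a background of 39.1% lower and 20% higher, and the median was -1.30 against -0.94.

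Of those 33 genes, 14 belonged to complex I, 3 to complex II, 2 to complex III, 4 to complex IV and 10 to complex V. ATP5J2, NDUFC2 and ATP5G2 had the lowest fitted changes, each with a shallow E60 library at 0 reads. COX6C changed by -4.62 ± 0.43 on the log2 scale (SE, limma adjusted p = 5.7e-05, 8 libraries), NDUFB5 by -4.46 ± 0.59 and SDHC by -3.18 ± 0.48. The 2 genes that rose were NDUFA4L2, by 2.43 ± 0.46, and COX8H, by 3.82 ± 0.88. In this comparison of 8 libraries all E50 libraries are deep and both E60 libraries shallow, so that stage and depth cannot be told apart again. With median-ratio scaling of these libraries 12 genes fell and 5 rose, against a background of 12.5% and 25.4%.

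Over the 9 libraries 1 gene, NDUFA4L2, had every E60 library above every E50 library, against 5.18% of all features. In 6 genes every E60 library lay below, against 21.6%, NDUFS5 among them. In these 6 the deep E60 library was lower as well as the shallow ones. Over the 8 libraries 2 genes lay above, against 24.4%, and 40 below, against 54.0%.

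The third comparison set the cap against the late bell stage. Over the 9 libraries 0 of the 58 genes passed by limma, 3 had an unadjusted p under 0.05, and 1.8% of all features passed (0.663% higher and 1.14% lower). Limma-voom called 0 of the genes, with 5 at an unadjusted p under 0.05 and 14.5% of all features passing. Over the 8 libraries, all of those compared being shallow, again 0 passed by limma, 2 had an unadjusted p under 0.05, and 6.06% of all features passed (1.37% higher and 4.68% lower). The median change was 0.18 on the log2 scale over the 9 libraries and -0.30 over the 8, against -0.22 and -0.47 over all features. Every E60 library lay below every E40 library in NDUFB11 and ATP5S, against 19.0% of all features, and above in 0 genes, against 3.89%. Over the 8 libraries 6 genes lay below, against 30.3%, and 0 above, against 5.45%.

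Since E60 holds both depths, the stages could also be compared within a depth set. In the deep set, E60 library 1 differed from the mean of the E50 libraries by a median of -0.0013 on the log2 scale over the 58 genes, with a range from -1.49 in COX8H to 0.59 in NDUFA4L2. Of the 58 genes, 57 differed by less than 1, whereas 9.93% of all features differed by more. So did 59 of 59 cytosolic and 56 of 57 mitochondrial ribosomal protein genes differ by less than 1. In 41 of the 58 OXPHOS genes the E60 value lay inside the range of the 3 E50 libraries. In 8 it lay above and in 9 below, against 43.7% of all features inside. With 1 library on one side, these differences have no test.

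In the shallow set, E60 libraries 2 and 3 differed from the E40 libraries by a median of -0.30, against -0.46 over all features. The range ran from -2.62 in ATP5G2 to 0.95 in NDUFB1, and 4 genes lay at -1 or below, against 22.8% of all features. Between the depths but within E60, the median of library 1 minus libraries 2 and 3 was 1.22, against 0.88 over all features. There 35 genes (60.3%) lay at 1 or above and 3 at -1 or below, from -5.31 in COX8H to 7.59 in ATP5J2, against 46.7% and 24.8% of all features. The part of depth in the change from E40 to E50 was not tested by these differences, which rest on 1 library on one side in the deep set and within E60. The medians within the deep set (-0.0013) and the shallow set (-0.30) are also those of the fit with the depth term. They are the same comparison and no separate evidence.

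**Figure D3:**
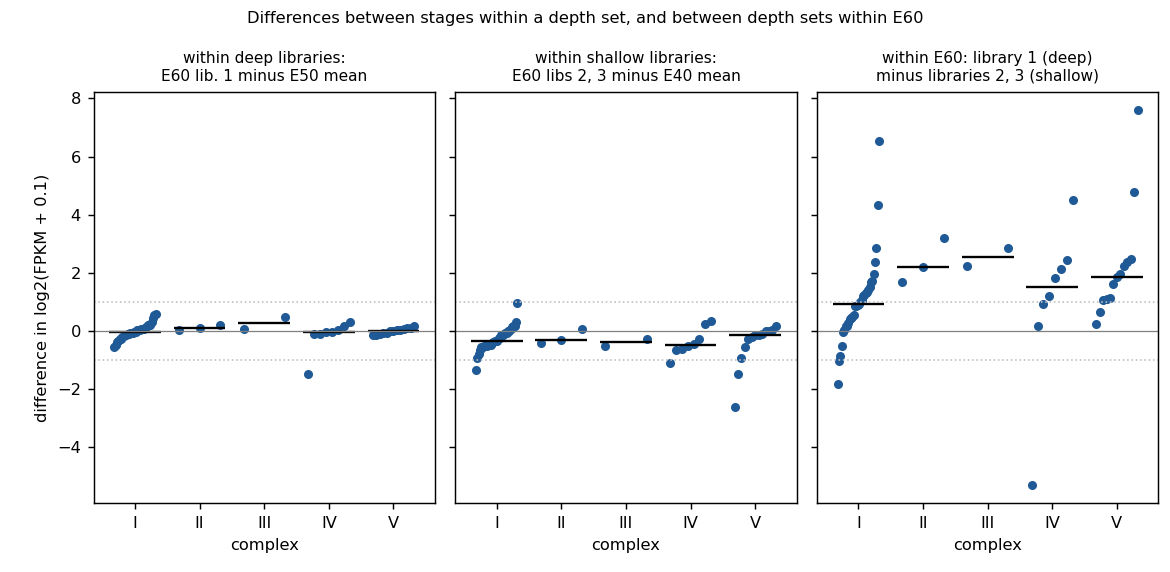
Difference in log2(FPKM + 0.1) of each of the 58 genes, by complex, within the deep libraries (left), within the shallow libraries (middle) and between the depths within E60 (right), with black lines at the median of each complex. In the left panel 57 genes lie between -1 and 1, where 9.93% of all features lie outside, and in the right panel 35 lie at 1 or above, as do 46.7% of all features.

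Each complex had its own share of the summed OXPHOS level. Complex I made up 48.1%, 44.4% and 44.6% of the sum at E40, 30.6%, 29.5% and 29.9% at E50, and 29.0%, 48.1% and 41.1% at E60. The shares of complexes II, IV and V were higher in every deep library than in any shallow one. Complex V made up between 33.4% and 35.2% of the sum in the deep libraries and between 26.9% and 29.4% in the shallow ones, and complex IV between 28.2% and 29.9% and between 19.5% and 24.7%. Only for complex III did the sets overlap.

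Ratios of 2 genes inside a library do not depend on the scaling between libraries. The ratio of COX6C to COX5B, a pair picked after its values were seen, was 0.331, 0.256 and 0.208 at E40, 1.82, 2.26 and 2.27 at E50, and 2.0, 0.219 and 0.180 at E60. Both proteins are structural subunits of the same complex, and COX6C was the more abundant transcript in all 4 deep libraries and the less abundant in all 5 shallow ones. The ratio of NDUFB5 to NDUFB2, picked likewise, was between 0.731 and 0.961 in the deep libraries and between 0.0337 and 0.0922 in the shallow ones.

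Some subunits of complexes I, IV and V exist as paralogs whose balance differs between tissues. Of 10 pairs listed for this question, 4 had both members in the table. Each was compared between stages as the log2 ratio within a library, by a two-sided exact permutation test, which with 3 against 3 libraries cannot go below 0.10, and with adjustment over 12 tests. From E40 to E50 the stages did not overlap in any of the 4 pairs (exact permutation p = 0.1 each, adjusted p = 0.24).

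The ratio of COX7A1, the muscle form, to COX7A2 was 0.916, 0.720 and 0.560 at E40, 0.186, 0.150 and 0.184 at E50, and 0.161, 0.822 and 0.730 at E60. The log2 ratio went from -0.48 ± 0.35 at E40 to -2.53 ± 0.17 at E50 (SD, n = 3), a difference of -2.05. The shallow E60 libraries lay inside the E40 range. The sums of the muscle markers are given above, and their part in this ratio was not tested. NDUFA4L2 to NDUFA4 had a ratio between 0.0454 and 0.0562 at E40, between 0.0034 and 0.0049 at E50, and of 0.0064, 0.069 and 0.092 at E60. Its log2 ratio differed by -3.33 from E40 to E50 and by 2.84 from E50 to E60, where the stages did not overlap either (exact permutation p = 0.1, adjusted p = 0.24).

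ATP5G1, ATP5G2 and ATP5G3 encode the same mature c subunit of the ATP synthase ring with different import sequences. ATP5G3 was the most abundant, at 93.2, 132 and 163 FPKM at E40, 265, 235 and 325 FPKM at E50 and 270, 90.4 and 173 FPKM at E60. ATP5G1 stood at 35.8, 46.9 and 68.6 FPKM at E40, at 73.5, 58.1 and 80.6 FPKM at E50 and at 62.7, 20.3 and 78.9 FPKM at E60. ATP5G2 stood at 5.16, 5.75 and 6.40 FPKM at E40, at 25.3, 27.0 and 34.8 FPKM at E50 and at 25.8, 0 and 8.94 FPKM at E60.

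The order ATP5G3, ATP5G1, ATP5G2 was the same in all 9 libraries. The log2 ratio of ATP5G1 to ATP5G3 differed by -0.59 from E40 to E50 and that of ATP5G2 to ATP5G3 by 1.19. ATP5G1 to ATP5G3 was the only one of these 4 ratios whose deep and shallow libraries overlapped, at 0.233 to 0.278 and at 0.225 to 0.457. From E40 to E60 none of the 4 ratios differed beyond the spread of the libraries (exact permutation p between 0.4 and 1).

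**Figure D4:**
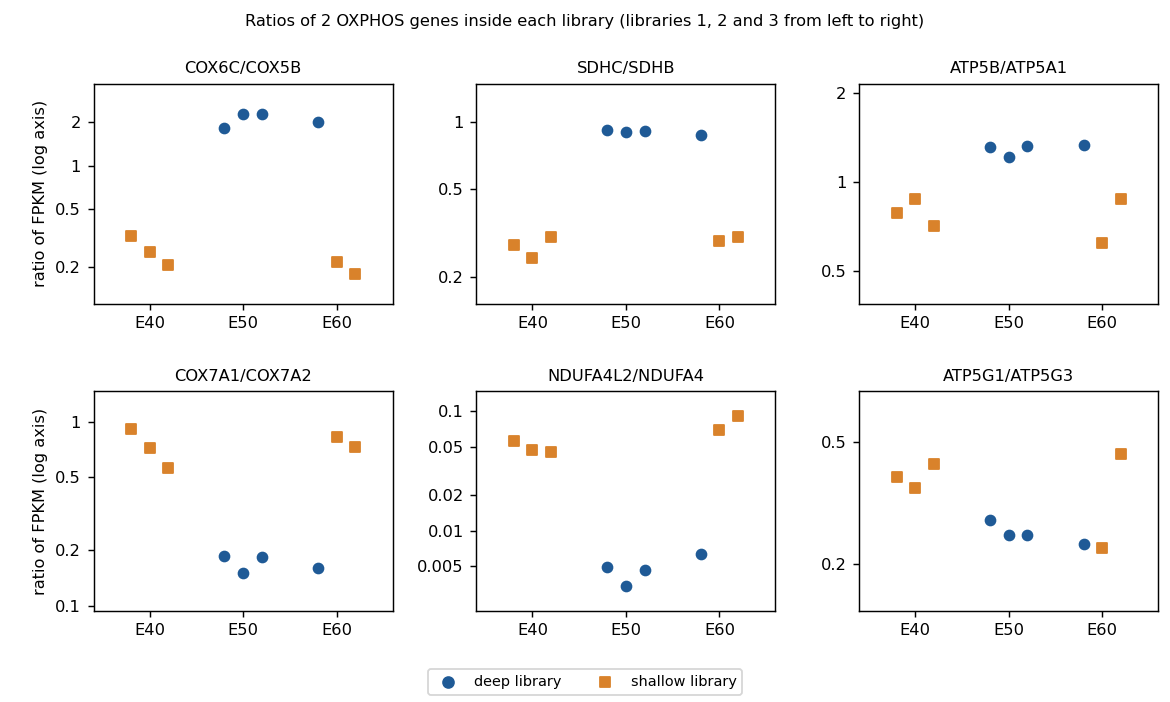
Ratio of the FPKM of 2 OXPHOS genes inside each library, on a log axis, by stage, where blue circles are deep and orange squares shallow libraries. In every panel but that of ATP5G1/ATP5G3 the deep E60 library stands with the E50 libraries and the shallow E60 libraries with the E40 libraries.

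Of the 13 subunits encoded by mitochondrial DNA, 2 had a positive change from E40 to E50, COX1 among them. The sum of the 13 lay between 6390 and 9466 FPKM in 8 libraries and at 32509 FPKM in E60 library 2. From E40 to E50, 1 of the 13 rose and 0 fell by limma over the 9 libraries, 8 had an unadjusted p under 0.05, and over the 8 libraries 1 rose and 7 fell. Over all features 16.8% rose and 21.8% fell over the 9 libraries, and 10134 of 19618 had an unadjusted p under 0.05. Over the 8 libraries 30.5% of all features rose and 24.2% fell. COX1, the catalytic subunit of complex IV, stood at 898, 1009 and 1100 FPKM at E40, at 3200, 4991 and 4611 FPKM at E50 and at 4537, 1463 and 1548 FPKM at E60 (change from E40 to E50 2.07 ± 0.59, SE, limma adjusted p = 0.026). The complex I subunit ND5 stood at 642, 573 and 460 FPKM at E40, at 175, 178 and 77.9 FPKM at E50 and at 208, 2860 and 764 FPKM at E60, and its change of -2.04 ± 0.83 did not pass (adjusted p = 0.076).

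The ratio of the mitochondrial to the nuclear sum was 3.32, 2.69 and 1.83 at E40, 1.13, 1.54 and 0.955 at E50, and 1.31, 20.8 and 2.04 at E60. It was lower in every deep library than in any shallow one, and E60 library 2 stood far above all others. In complex IV the nuclear genes COX6C, COX7C and COX6B rose from E40 to E50, as did the mitochondrial COX1. COX8H fell, and COX5B, COX6A1, COX7A1 and COX7A2 did not pass. COX1 was the only mitochondrial gene that rose by limma. Its ratio to COX3, of the same complex, went from 1.699 ± 0.193 at E40 to 7.921 ± 2.828 at E50 (SD, n = 3). COX3 thus did not keep pace with COX1. The median change of the 13 mitochondrial genes was -1.44 on the log2 scale against 1.02 for the nuclear genes.

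**Figure D5:**
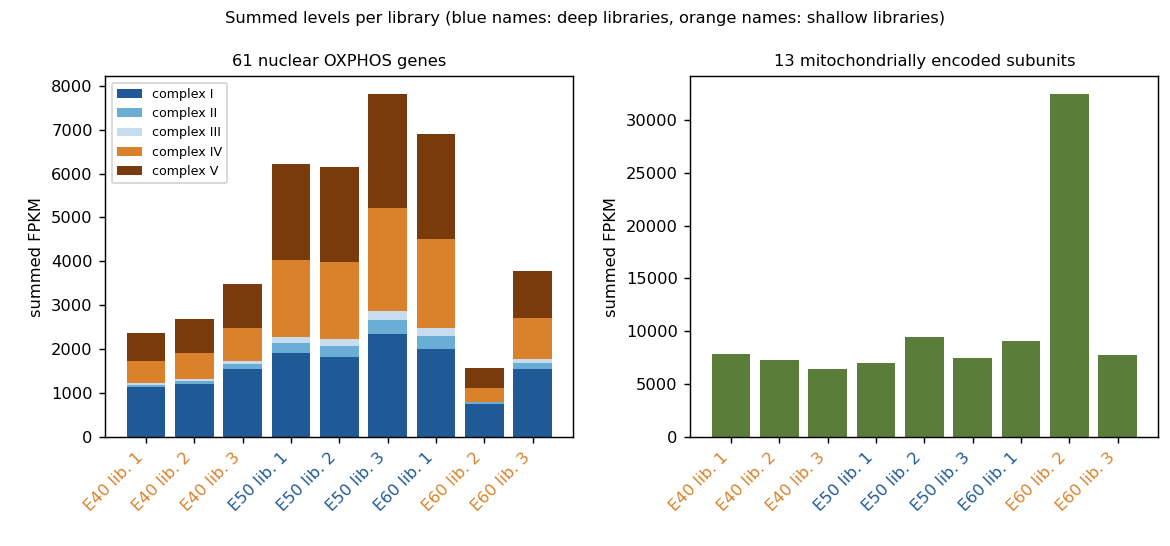
Summed FPKM per library of the 61 nuclear OXPHOS genes, stacked by complex (left), and of the 13 mitochondrially encoded subunits (right), both axes starting at 0. The nuclear sum is highest in the 4 deep libraries, between 6153 and 7822 FPKM, and the mitochondrial sum stands at 32509 FPKM in E60 library 2.

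The nuclear OXPHOS genes were set beside other genes of the mitochondrion and of energy metabolism, for all of which the background of 16.8% higher and 21.8% lower applies. From E40 to E50 over the 9 libraries, 12 of 57 mitochondrial ribosomal protein genes rose and 3 fell (median change 1.13 on the log2 scale). In the Krebs cycle 4 of 13 rose and 0 fell by limma, 7 having an unadjusted p under 0.05 (median 1.35), among them CS, which makes citrate, and the succinyl-CoA ligase genes SUCLA2, SUCLG1 and SUCLG2. Of 18 glycolysis genes, 2 rose, namely LDHB and PDK1, and 0 fell by limma, 4 having an unadjusted p under 0.05 (median 0.71). Of 9 genes for mobile carriers and exchange, 3 rose and 0 fell by limma, 4 having an unadjusted p under 0.05, among the risers the phosphate carrier SLC25A3 and the ADP/ATP carrier SLC25A5.

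Of 22 assembly factors, 3 rose and 3 fell, and of 7 regulators of mitochondrial biogenesis 3 rose (TFAM, which packages mitochondrial DNA, TFB1M and GABPA) and 2 fell (ESRRA and POLG). Cytosolic ribosomal protein genes, which like the OXPHOS genes encode small and abundant proteins, had 16 of 59 risers and 0 fallers by limma, 26 having an unadjusted p under 0.05, and a median of 1.21. The summed OXPHOS level relative to that of the cytosolic ribosomal proteins was 0.061 ± 0.0022 at E40 and 0.077 ± 0.0025 at E50 (SD, n = 3), and 0.093, 0.069 and 0.071 at E60. The differences between these groups of genes were not tested.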

How the data were processed

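Total RNA of Dm3 germs, depleted of rRNA, was sequenced by the authors as paired ends and aligned with TopHat. The submitters' processing notes name the build Sscrofa10.2. The authors deposited FPKM values for 34580 features in 9 libraries, with no further scaling stated, and how reads with several matches were treated is not given in the sources used here. Subunit genes with near-identical copies, the ATP5G genes among them, are therefore uncertain.

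Stages were taken from the labels. The 19618 features that reached an FPKM of 1 in 2 or more libraries entered a limma fit (limma 3.58.1, R 4.3.3) of log2(FPKM + 0.1) with 1 coefficient per stage and the mean-variance trend, and fold changes understate those of low genes. Limits were an adjusted p of 0.05 and a log2 change of 1. Results are given over 9 libraries and over 8 without E60 library 1. Whole reads were recovered for 28961 of 28963 features (tolerance 0.02). Read ratios were corrected for the FPKM worth of a read in each library, not for the recovered read totals. Intervals and the floor of 3 reads cover counting error only. Scripts were tested on simulated data. The genes and lists were chosen with earlier results of these data known. Values in every library are given for the 2 highest genes of each complex, the paralog pairs and the 3 largest calls in each direction and comparison. COX5B, ATP5S and the others named were added after their values were seen. Exact tests used scipy 1.17.1 under Python 3.11.15, tables pandas 2.3.3 with numpy 2.4.6, and plots matplotlib 3.10.9. Alternatives are described at the end. Genome positions and sequences were not used here, and some genes are not reported here by name.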

Additional observations from a re-analysis of the deposited data

How the results depend on the processing

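The alternatives were a pseudocount of 1 or 0.01, a looser or no filter on low values, median-ratio scaling, a fit of only the stages compared, no mean-variance trend, a replicate block and leaving out each library. Limma-voom on the recovered reads, the depth set as a term and median-ratio scaling of 8 libraries were chosen after seeing the data. The 17 calls from E40 to E50 became 0 with the depth set as a term, 11 without the trend, 32 with only the 2 stages, 10 with the replicate block, and between 0 and 30 when 1 library was left out. Over all features the 7580 calls became 50, 6789, 11001 and 5104 in turn, and between 58 and 10650 when 1 library was left out. From E50 to E60 the 0 calls became 17 with scaling of 8 libraries, and ranged from 0 to 35 when 1 library was left out, with 35 only without E60 library 1. The 14 calls over all features became 7434 with that scaling and 11529 without E60 library 1. The number of calls from E40 to E60 was 0 under every alternative run. The median change between E40 and E50 was -0.24 with the depth term, and 0.36 and 0.38 with scaling of 9 and 8 libraries. It was 0.59 with voom, against -0.047 over all features. With voom 8 of the 58 genes rose and 4 fell, where 1768 and 4599 of all 19618 features did. Between E50 and E60 the median change was -0.0013 with the depth term and -0.10 with scaling. Same-numbered libraries deviated from their stage means with correlations between -0.52 and 0.11. At E60 these deviations also hold the difference in depth, so the check cannot tell whether same-numbered libraries are paired. The replicate block left the 0 calls of the other comparisons at 0. It also lowered the counts of calls between E40 and E50 in other groups, from 7 to 3 in complex I, 15 to 6 for the mitochondrial and 16 to 6 for the cytosolic ribosomal proteins, 4 to 2 in the Krebs cycle, 3 to 1 among carriers, 1 to 0 among mitochondrially encoded subunits and 7580 to 5104 over all features.

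Among single genes, scaling turned the sign of ATP5G1 between E40 and E50 (-0.14) and, in the next interval, of ATP5G1 (0.19), ATP5G3 (0.024), COX7A1 (0.61), NDUFB2 (0.67) and NDUFS5 (0.00065). From E50 to E60, leaving out E60 library 2 turned ATP5G1 (0.0059), COX7A1 (0.31) and NDUFB2 (0.30), leaving out E50 library 3 turned COX7A1 (0.020) and NDUFB2 (0.046), and leaving out E60 library 3 turned NDUFB11 (-0.26). Left out in turn, single libraries gave these genes changes from -0.97 (ATP5G1), -0.60 (COX7A1) and -0.42 (NDUFB2), each without E60 library 3. None of these passed under these settings. Among the paralog ratios, ATP5G1/ATP5G3 from E50 to E60 turned without E60 library 3 (range -0.17 to 0.34). From E40 to E60, ATP5G2/ATP5G3 turned without E60 library 2 (range -2.61 to 0.61), and COX7A1/COX7A2 (range -1.06 to 0.11) and NDUFA4L2/NDUFA4 (range -1.18 to 0.69) without E60 library 1. The causes were not tested. In the shallow libraries 1 read was worth between 9.48 and 17.8 times the FPKM it was worth in E50 library 2. This limits the genes near the floor.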

Other observations

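Of the assembly factors, which help to build the complexes but are no part of them, NDUFAF7, a methyltransferase for complex I, and TMEM126A had levels opposite to most subunits. NDUFAF7 stood at 190, 175 and 141 FPKM at E40, at 17.0, 19.3 and 19.7 FPKM at E50, and at 17.3, 143 and 107 FPKM at E60. TMEM126A stood at 242, 187 and 174 FPKM at E40, at 24.3, 28.4 and 35.5 FPKM at E50, and at 31.8, 162 and 113 FPKM at E60. The shallow libraries were the high ones in both genes, with no overlap with the deep ones. Both fell from E40 to E50 (changes of -3.16 ± 0.68 and -2.77 ± 0.56, SE, limma adjusted p = 0.013 for both). LRPPRC, which keeps mitochondrial mRNA stable, went the other way, at 6.99, 7.72 and 7.19 FPKM at E40, 37.2, 50.0 and 43.7 FPKM at E50 and 54.6, 7.12 and 8.16 FPKM at E60.

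IDH3A, the catalytic alpha subunit of the NAD-dependent isocitrate dehydrogenase of the Krebs cycle, was higher at E60 in both depth sets. It stood at 9.12, 8.14 and 7.31 FPKM at E40, at 23.6, 27.3 and 31.5 FPKM at E50, and at 62.6, 7.82 and 27.7 FPKM at E60. In the deep set E60 library 1 lay above the E50 libraries by 1.20 on the log2 scale, and in the shallow set the mean of E60 libraries 2 and 3 lay above E40 by 0.85, although library 2 alone lay inside the E40 range. It was singled out after its values were seen. In the deep set the difference rests on 1 library on one side, and no test of it is given here for either set.

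The lactate dehydrogenase genes LDHA and LDHB encode the subunits found mainly in muscle and in heart. The ratio of LDHA to LDHB was 2.96, 2.35 and 2.63 at E40, 1.26, 1.39 and 1.05 at E50, and 1.66, 3.64 and 1.92 at E60. The deep libraries lay below the shallow ones in this ratio too.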
